A study of Nicotiana tabacum with 39 samples.

Results

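Young leaves of Nicotiana tabacum, the cultivated tobacco, were followed over 4 days at a single clock time after the plants had been returned from extended darkness to light. The harvests compared here were those at 16, 40, 64 and 112 h after the return, chosen because they lie whole days apart, with 3 libraries at each time. They make up 12 of the 39 libraries of the study. The other 27 libraries are from the 7 light times of 5, 10 and 30 min and 1, 2, 4 and 8 h, from the end of darkness (0 min), and from control plants that had no dark treatment, with 3 libraries per group. They entered the estimate of the spread and the comparisons with earlier stages. Each library is a pool from 3 plants, each giving the middle parts of 2 young leaves, and the plants of every group had been raised on soil, nearly to maturity, under 16 h days. How long the darkness lasted, and at what clock time control leaves were harvested, is not stated in the labels. The 4 times were 24, 24 and 48 h apart. No leaves of plants without the dark treatment were harvested on the same days, so days in light and the age of the leaf cannot be told apart.

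When leaves that have been in darkness return to light, photoreceptors such as the phytochromes and cryptochromes change the activity of transcription factors, and many genes for chloroplast proteins, chlorophyll synthesis and carbon metabolism change their transcript levels. Many plant transcripts also rise and fall each day with the circadian clock and the light cycle, so that harvests at different clock times differ for that reason too. Harvests whole days apart share their clock time, and a difference between them is one between days. A leaf also grows and ages over days, with changes in transcripts of cell division, cell walls and photosynthesis. The transcripts here are known only by NCBI GI number, and 0 of 53725 identifiers could be paired with the 79372 genes of the reference table. No gene name, pathway, position or sequence is therefore given, and the leaf was not checked against marker genes. Library totals were between 19160583 and 24613789 counts in the 12 libraries, and between 15844109 and 37269515 over all 39. The test covered 42181 transcripts, which held 99.9% of the counts. Of the 12 libraries, 40 h replicate 2 stood nearer to the 64 h libraries than its own group did, and counts without it are given where they matter.

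Many transcripts in these leaves rose or fell with the days at 1 clock time. A straight line was tested through the 4 time means of log2 expression against days since the return to light. At an adjusted p below 0.05 (edgeR quasi-likelihood F test, Benjamini-Hochberg adjustment), 14352 of 42181 transcripts had a slope, 34.0% of those tested. Of these, 7532 rose (17.9% of those tested) and 6820 fell (16.2%). The unadjusted p was below 0.05 for 18164 transcripts, or 43.1%. Without 40 h replicate 2, 14834 transcripts had a slope. In bulk tissue, fewer cells of a type and less RNA per cell cannot be told apart, so a slope may belong to either.

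Most slopes were modest. The median slope of the rising transcripts was 0.23 log2 units per day, with quartiles of 0.15 and 0.34 and a median SE of 0.057. That of the falling transcripts was -0.21 per day, with a median SE of 0.048, and the median over all tested transcripts was 0.011. Along the fitted line from 16 to 112 h, the median rise came to 1.87-fold and the median fall to 1.77-fold. The line spanned at least 2-fold for 3241 rising and 2606 falling transcripts, at least 4-fold for 756 and 891, at least 8-fold for 265 and 389, and at least 32-fold for 45 and 13. The steepest slopes were 2.48 and -2.56 per day.

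The split between rising and falling depended on the scaling. With scaling by library size only, in place of the trimmed mean of M values (TMM), 5207 transcripts rose and 8443 fell, so that 38.1% of the called slopes were rising instead of 52.5%. The median change of all tested transcripts over the 4 days was -0.081 log2 units with that scaling and 0.045 with TMM. Of the transcripts called with TMM, 12027 (83.8%) were also called in the same direction with library-size scaling. Each of the 7532 rising and 6820 falling transcripts kept the sign of its slope. The median slope over all tested moved only from 0.011 to -0.020 per day, so few signs could turn. Rises and falls are given relative to the TMM scale from here on.

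The replicates separated the ends of the series. All 3 libraries of 112 h lay above all 3 of 16 h for 6930 of the rising transcripts (92.0%), against 25.5% of all tested transcripts. All 3 libraries of 112 h lay below all 3 of 16 h for 6465 of the falling transcripts (94.8%), against 23.0% of all tested. The slope that chose these transcripts uses the same libraries, so these shares describe the choice. The 4 time means stood in rising order for 5600 of the rising transcripts (74.3%, against 20.3% of all tested) and in falling order for 5510 of the falling ones (80.8%, against 19.2%). A rise or fall in which neighbouring times did not overlap at any of the 3 steps was found for 148 rising transcripts (1.96%, against 0.356% of all tested) and 122 falling ones (1.79%, against 0.292%).

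**Figure D1:**
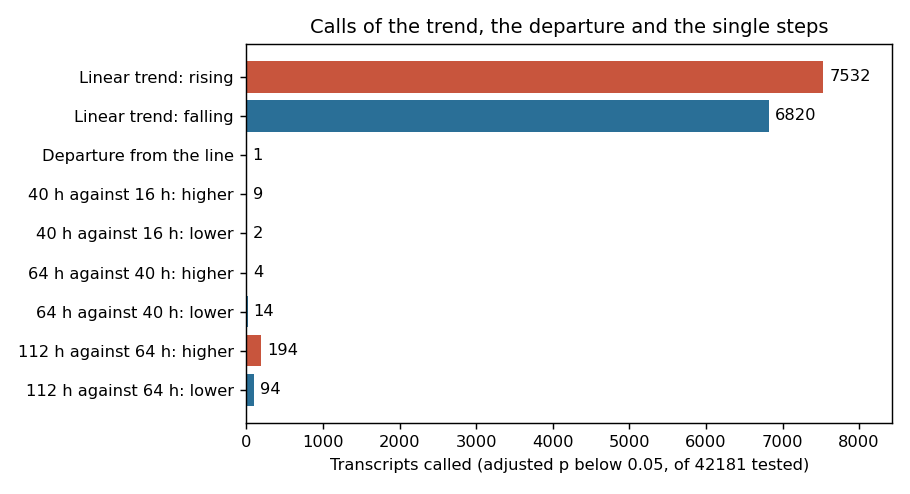
Number of transcripts called at an adjusted p below 0.05 (x axis) for the linear trend, the departure from it and each step between neighbouring times, of 42181 tested. The trend bars reach 7532 and 6820, while the departure has 1 call and the last step, the longest bar among the steps, has 194 higher and 94 lower.

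The transcript counts translate into a large share of the reads. At the successive times of 16, 40, 64 and 112 h the rising transcripts took 18.6 ± 1.97%, 22.2 ± 2.67%, 27.1 ± 0.586% and 32.3 ± 3.31% of the counts (SD, n = 3 each). The falling transcripts took 25.9 ± 3.36%, 21.6 ± 3.28%, 16.0 ± 0.669% and 12.5 ± 2.19%. These shares were computed on the libraries that chose the transcripts and are a description of size. No few transcripts carried them: the 10 most abundant rising transcripts held 4.59% of the counts at 112 h, and the 10 most abundant falling ones held 1.46% at 16 h. The median level was 7.54 CPM (counts scaled to a common library size with TMM) for rising transcripts, 10.1 CPM for falling ones and 5.18 CPM over all tested.

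A switch between nearly absent and well expressed was rare. Only 18 transcripts averaged under 1 CPM at 16 h and at least 10 CPM at 112 h, and all 18 were called as rising. Of these, 11 averaged at least 1 CPM in control leaves and 2 did so at the end of darkness. In the other direction, 3 transcripts averaged at least 10 CPM at 16 h and under 1 CPM at 112 h. All 3 were called as falling, and all 3 averaged at least 1 CPM in control leaves. Both groups were picked by their 16 and 112 h means, on which the slope mostly rests, so these calls describe the choice. The matching shares of all tested transcripts in control leaves or at the end of darkness are not given here.

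The steepest rise that qualified belonged to transcript 698508153, while the steepest of all, 2.48 log2 units per day, did not qualify. Among the 3623 rising transcripts that qualified (no call of departure, at least 10 CPM at 112 h, no overlap between the ends) it had the largest slope, 2.02 ± 0.20 log2 units per day (SE, adjusted p = 2.30e-08, edgeR), and the slopes ranked 2nd to 10th were 1.66 to 1.30. It had 0.048, 0.448 and 0.089 CPM in the 16 h libraries, which are 1, 10 and 2 reads. It had 0.097, 0.867 and 0.150 CPM in the 40 h libraries, 1.15, 1.62 and 1.75 CPM in those of 64 h, and 73.9, 53.1 and 11.8 CPM in those of 112 h. The libraries of 16 and 40 h overlapped and were close to the limit of detection, those of 64 h lay above them all, and those of 112 h lay far above the rest. Most of its increase thus fell in the last 2 days: the step from 64 to 112 h was 4.94 ± 0.71 log2 units (SE, adjusted p = 0.00116, edgeR). Its departure from the line had an unadjusted p of 0.461, with 16 and 40 h levels that rest on few reads. Over 16 to 64 h alone its slope was 1.45 per day, with an adjusted p of 0.0605 (edgeR). It averaged 2.94 CPM at the end of darkness and 5.63 CPM after 1 h of light, against 0.437 CPM in control leaves, so the low level at 16 h followed a higher one within the first hours of light.

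Transcript 698530803 was the single one whose departure from the line passed the test (adjusted p = 0.00698, edgeR). It had 1.02, 1.52 and 0.222 CPM at 16 h and 27.5, 363.0 and 61.3 CPM at 40 h. It had 388.0, 118.2 and 178.2 CPM at 64 h and 457.6, 321.0 and 577.5 CPM at 112 h. The jump came between 16 and 40 h, where all libraries separated, and the libraries overlapped between 40 and 64 h and between 64 and 112 h. The first step was 7.35 ± 0.91 log2 units (SE, adjusted p = 0.000163, edgeR), while the later ones of 0.60 ± 0.64 and 0.99 ± 0.65 did not pass. Its slope over the 4 times was 1.89 ± 0.20 per day (SE, adjusted p = 5.71e-08, edgeR). Before the return to light it averaged 0.499 ± 0.251 CPM, against 63.1 ± 72.8 CPM in control leaves (SD, n = 3 each), whose libraries varied widely. That difference was -6.93 ± 0.95 on the log2 scale (SE, adjusted p = 4.90e-07, edgeR). It was at or under 0.287 CPM on average at every harvest from 5 min to 8 h of light. The call of departure was lost in 9 of 25 alternative fits, with adjusted p of 0.110 when only the 12 libraries were fitted and up to 0.871 among all alternatives.

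Among falling transcripts, 3754 qualified (no call of departure, at least 10 CPM at 16 h, no overlap between the ends). Steeper slopes, down to -2.56 per day, were left out by this rule. The steepest fall that qualified was that of transcript 698557087, with a slope of -1.07 ± 0.13 log2 units per day (SE, adjusted p = 2.87e-07, edgeR). The next steepest had -1.06 per day, so 698557087 hardly stood apart. It had 17.1, 10.7 and 20.5 CPM in the 16 h libraries and 15.2, 5.10 and 14.7 CPM in those of 40 h. The 64 h libraries had 5.06, 3.04 and 5.36 CPM, and the 112 h libraries 0.712, 1.48 and 0.635 CPM. The libraries of neighbouring times overlapped at 16 and 40 h and at 40 and 64 h, and those of 112 h lay below the rest. The fall along the line was 19.2-fold, and the last step of -2.25 ± 0.53 log2 units passed alone (SE, adjusted p = 0.0350, edgeR). Dark-treated leaves before the return to light had 2.94 ± 1.14 CPM, and control leaves 8.76 ± 2.74 CPM (SD, n = 3 each), so that the level at 112 h lay below both.

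Transcript 698523703 had the smallest departure p among 3763 falling transcripts that qualified, 0.000293, with an adjusted p of 0.823 (edgeR). It had 21.7, 16.3 and 14.0 CPM in the 16 h libraries and 9.23, 7.60 and 8.87 CPM in those of 40 h. The 64 h libraries had 5.87, 4.41 and 4.93 CPM, and the 112 h libraries 3.56, 5.39 and 4.06 CPM. The libraries separated at the first and the second step and overlapped at the last. Its first step was -1.02 ± 0.20 log2 units (SE, adjusted p = 0.0484, edgeR) and its slope -0.48 ± 0.05 per day (SE, adjusted p = 5.43e-08, edgeR). Before the return to light it had 5.54 ± 1.56 CPM, against 13.3 ± 1.59 CPM in control leaves (SD, n = 3 each). Over the 12 libraries, the transcript most like it in log2 CPM was the one listed 1 place before it, with a Pearson correlation of 0.989.

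**Figure D2:**
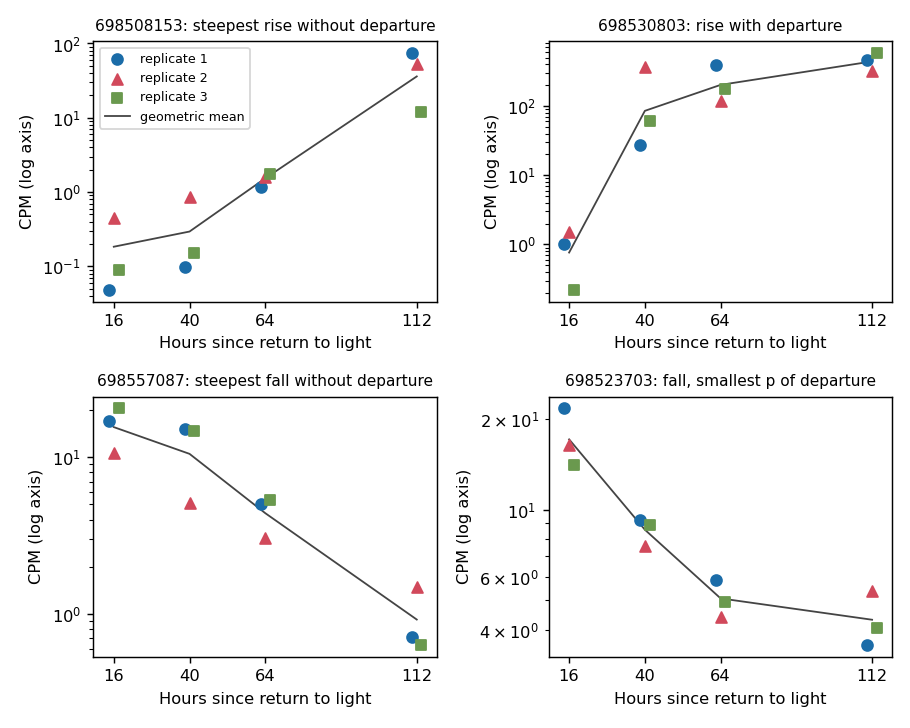
CPM on a log axis against hours since the return to light for 698508153, 698530803, 698557087 and 698523703, with each of the 3 libraries per time as a point and the geometric mean as a line. The rise of 698530803 falls between 16 and 40 h, whereas that of 698508153 falls mostly between 64 and 112 h.

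Neighbours in the list had slopes more alike than transcripts farther apart. The slopes of transcripts next to each other in identifier order had a correlation of 0.27, and those 50 places apart one of -0.0040. Where a transcript had a called slope, its neighbour had a called slope in the same direction in 39.04% of cases and in the opposite direction in 12.7%. At 50 places apart these shares were 16.7% and 17.4%. Near-identical copies of many tobacco genes derive from the parent species, but whether neighbours in the list are such copies is unknown without names. How reads common to near-identical sequences were counted is not stated either. The cause of the likeness was not tested. The 14352 transcripts cannot be read as the same number of independent genes.

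Departure from a straight line was hardly detectable for single transcripts. The F test of curvature (quadratic and cubic parts together) called 1 of 42181 transcripts, 0.00237%, and 1453 (3.44%) had an unadjusted p below 0.05. DESeq2 called 5 and limma 0. A test of whether the 4 times differed in any way called 9668 transcripts (22.9%), and 9530 of these also had a slope. Only 138 changed without a called slope, while 4822 had a slope without passing the broader test. Of the transcripts that differed between 112 and 16 h, 13131 in all, 12895 had a slope, against 34.0% of all tested. The slope rests mostly on the 16 and 112 h means, and the broader test contains the slope. Much of this overlap therefore follows from the way the tests are built.

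The daily rate was compared directly between the last interval (64 to 112 h) and the first (16 to 40 h). The 2 rates share no library. They differed for 3 transcripts (0.00711%; unadjusted p below 0.05 for 1817, or 4.31%), all with a lower rate in the last interval. The first is 698530803, with a difference of -6.86 log2 units per day (adjusted p = 0.00124, edgeR). A second transcript averaged 0.243, 0.811, 0.739 and 0.259 CPM at 16, 40, 64 and 112 h, with a difference of -2.46 (adjusted p = 0.0155, edgeR). The remaining one averaged 0.363, 2.22, 1.46 and 1.32 CPM, with -2.65 (adjusted p = 0.0416, edgeR). Both had low levels, and the highest of their time means was at 40 h. A further transcript passed the quadratic part alone, with 1.95, 5.38, 5.11 and 0.511 CPM at the 4 times. These 3 transcripts without an identifier were chosen because they passed.

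Summed over many transcripts, the 64 h level lay off the line in the direction of the later change. The 64 h harvest is the midpoint in time between 16 and 112 h. The 64 h mean lay above the midpoint of the 16 and 112 h means for 5441 of the rising transcripts, or 72.2%, by a median of 0.12 log2 units. For falling transcripts it lay above the midpoint in 1709, or 25.1%, with a median of -0.11. Over all tested transcripts 49.5% lay above, with a median of -0.0020. The typical SE of such a distance was 0.21 for a rising and 0.17 for a falling transcript, larger than the medians, and 0 transcripts passed this test (edgeR; unadjusted p below 0.05 for 2350, or 5.57%). At the median, and on the TMM scale, both directions had therefore covered more of their way by 64 h than a straight line gives. Another scaling would shift both distances the same way, and they are not given with library-size scaling. The quadratic part had the matching sign: 68.5% of rising transcripts were concave and 68.7% of falling ones convex, against 49.3% concave and 50.7% convex over all tested. When each of the 9 libraries of 16, 64 and 112 h was left out in turn, the median distance stayed between 0.088 and 0.16 for rising transcripts and between -0.15 and -0.065 for falling ones.

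At 40 h, where an even pace would give 25% of the way, the distance was smaller. The median was 0.030 for rising and 0.019 for falling transcripts, with 56.9% and 56.5% of them above the line, against 51.9% of all tested. A test of this distance called 2 transcripts (unadjusted p below 0.05 for 1190, or 2.82%). The test of the 64 h and 40 h distances was chosen after the curvature test had been seen.

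In the fit without pairing by replicate number, single steps passed the test for few transcripts. The 40 h level was higher than that of 16 h for 9 transcripts (0.0213%) and lower for 2 (0.00474%), with an unadjusted p below 0.05 for 2683 (6.36%). These times were paired too, and the block gave 13 transcripts, or 155 (104 higher and 51 lower at 40 h) in the 12 libraries alone. The 64 h level was higher than that of 40 h for 4 (0.00948%) and lower for 14 (0.0332%), with 4619 (11.0%) unadjusted. The replicate numbers paired the libraries of 40 and 64 h, and with the number as a block 971 transcripts differed (186 higher and 785 lower at 64 h), or 873 in a fit of the 12 libraries alone. The 112 h level was higher than that of 64 h for 194 (0.460%) and lower for 94 (0.223%), with 4695 (11.1%) unadjusted. Which direction had more calls in this last step depended on the setting: limma called 128 higher and 160 lower, and the fit without 112 h replicate 2 called 412 higher and 546 lower. The median size of a step over all tested transcripts was 0.16, 0.19 and 0.19 log2 units. The median SE was 0.23, 0.24 and 0.24 in the fit without the block. A called slope in the direction of the step was present for 11 of 11, 17 of 18 and 287 of 288 of these transcripts. The slope shares libraries with each step.

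Counts of steps rested on single libraries more than the trend did. Without 40 h replicate 2, 1330 transcripts differed between 64 and 40 h, against 18 with it, and 1 differed between 40 and 16 h, against 11. Without 112 h replicate 1, 7 differed between 112 and 64 h, against 288 with it, and 9475 had a slope, against 14352. Without 112 h replicate 2, 958 differed in that last step. Without 64 h replicates 1, 2 and 3 in turn, 31, 152 and 19 did. DESeq2 called 34, 255 and 605 transcripts in the 3 steps in time order.

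The first and the last step share no library and can be set side by side. Over the 42181 tested transcripts the correlation of the step from 64 to 112 h with that from 16 to 40 h was 0.23. Of the 194 transcripts higher at 112 h than at 64 h, 158 (81.4%) had a 40 h mean above their 16 h mean, against 50.4% of all tested. Their median first step was 0.27 log2 units, against a median last step of 1.24. Of the 94 transcripts lower at 112 h than at 64 h, 23.4% had a 40 h mean above that of 16 h, and their median first step was -0.12, against a median last step of -1.68. The last step spans 2 days and the first 1 day.

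The 3 libraries of a time did not all stand at the same place along the trend. To place each library, transcripts with a slope of at least 2-fold along the line were chosen from the libraries of 2 replicate numbers, and the median share of the way from the 16 h level (0%) to the 112 h level (100%) was read in the library of the number left out, so each replicate number has its own list of transcripts. For rising transcripts, replicates 1, 2 and 3 stood at -11.4, 22.6 and -0.940% in the 16 h harvest and at 11.7, 54.1 and 18.4% in the 40 h harvest. The 64 h libraries stood at 66.6, 70.4 and 55.2%, and the 112 h libraries at 115.9, 75.8 and 90.7%. The ranges of 40, 64 and 112 h did not overlap, while those of 16 and 40 h did. Replicate 2 was ahead of the others at 16 and 40 h and behind them at 112 h. An even pace would give 0, 25, 50 and 100%.

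Falling transcripts gave the same order of the 3 libraries at each time. Replicates 1, 2 and 3 stood at -13.5, 24.5 and -10.7% in the 16 h harvest and at 0.0045, 45.9 and 12.1% in the 40 h harvest. The 64 h libraries stood at 60.8, 66.8 and 54.1%, and the 112 h libraries at 119.2, 73.6 and 91.8%. The spread within 40 h and within 112 h was thus as wide as the step that an even pace makes in 1 day (25%), or wider. The 40 h replicates deviated from their own mean along the difference between 112 and 16 h, with correlations over 42181 transcripts of -0.43, 0.48 and -0.19 in replicates 1, 2 and 3. For the 64 h replicates these were -0.093, 0.22 and -0.14. The labels do not say whether replicate 2 was grown or harvested apart, and its part in the results beyond the values given was not tested.

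**Figure D3:**
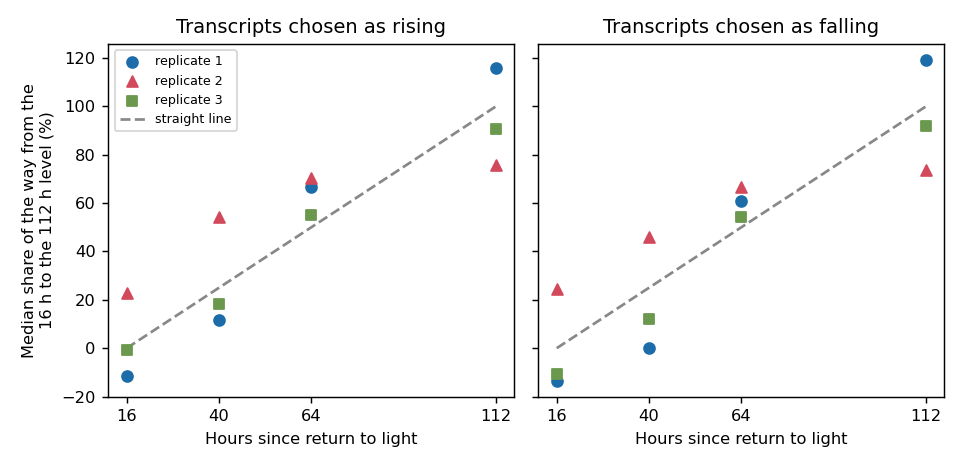
Median share of the way from the 16 h level to the 112 h level (y axis, %) in each library against hours since the return to light, for transcripts chosen as rising and as falling in the other 2 replicate numbers. Replicate 2 (triangles) stands highest at 40 h, at 54.1% and 45.9%, and lowest at 112 h, at 75.8% and 73.6%, while the dashed line is an even pace.

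A principal component analysis of the 12 libraries, which chose no transcripts by slope, gave the same order of times. The first component held 54.4% of the variance and the second 8.67%. On the first, the 16 h libraries scored -97.7, -53.3 and -89.8 and the 40 h libraries -66.6, 4.48 and -50.7. The 64 h libraries scored 24.1, 43.3 and 19.9, and the 112 h libraries 117.5, 62.8 and 85.9. The scores of 40, 64 and 112 h did not overlap between times. Those of 16 and 40 h did, because 16 h replicate 2 lay at -53.3 and 40 h replicate 1 at -66.6.

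The pace of the change was read in the left-out libraries as well. Rising transcripts gained 0.39 ± 0.08 log2 units per day from 16 to 40 h, 0.55 ± 0.33 from 40 to 64 h and 0.24 ± 0.20 from 64 to 112 h (SD over the 3 replicate numbers left out in turn). Falling transcripts changed by -0.32 ± 0.07, -0.71 ± 0.41 and -0.27 ± 0.25 per day. The means were largest in size in the middle day, with wide SDs in the middle and last interval. For rising transcripts the rates in the 3 intervals were 0.36, 0.89 and 0.43 in replicate 1, 0.48, 0.23 and 0.030 in replicate 2, and 0.33, 0.54 and 0.25 in replicate 3. In each replicate the middle rate was larger than the last, for rising and for falling transcripts, while the first rate was larger than the middle one in replicate 2 and smaller in the others. The middle and last rates share the 64 h library. The distance of the left-out 64 h library from the midpoint was 0.19, 0.33 and 0.18 for rising and -0.16, -0.30 and -0.29 for falling transcripts in replicates 1, 2 and 3. It therefore had the same sign in all 3, and the same sign as in the whole set of libraries.

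The earlier part of the experiment shows where these transcripts stood before. The comparisons of the end of darkness with control and of 8 h with the end of darkness use none of the 12 libraries, though they share the libraries of the end of darkness with each other. At the end of darkness 10805 transcripts (25.6%) were higher than in control and 10122 (24.0%) lower. Of the falling transcripts 2960 (43.4%) were lower and 1061 (15.6%) higher at the end of darkness than in control, with a median difference of -0.39 log2 units. Of the rising transcripts 2407 (31.96%) were higher and 1632 (21.7%) lower, with a median of 0.13. The median over all tested transcripts was 0.027. Seen from the other list, falling transcripts made up 29.2% of those lowered in darkness and 9.82% of those raised, against 16.2% of all tested. Rising transcripts made up 16.1% and 22.3%, against 17.9% of all tested. With library-size scaling, where 34.1% of all tested were higher and 15.8% lower, the falling transcripts of that scaling had 27.8% lower and 23.4% higher, and the rising ones 37.0% higher and 18.4% lower.

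The first 8 h of light had moved many of them in the direction opposite to that of the later days. After 8 h, 10645 transcripts (25.2%) were higher than at the end of darkness and 11092 (26.3%) lower. Of the falling transcripts 3742 (54.9%) were higher and 702 (10.3%) lower at 8 h, with a median difference of 0.58. Of the rising transcripts 3183 (42.3%) were lower and 951 (12.6%) higher, with a median of -0.45. The median over all tested was -0.033. The falling transcripts made up 35.2% of those higher at 8 h, against 16.2% of all tested, and the rising ones 28.7% of those lower, against 17.9%. With library-size scaling, 47.8% of the falling transcripts of that scaling were higher at 8 h and 12.4% lower. Of the rising ones 42.5% were lower and 12.3% higher, against 22.2% higher and 27.6% lower among all tested. The 8 h harvest has another clock time than the 4 later ones, and 0 min and 8 h differ from each other in it too, so the difference is also one of clock time.

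Transcripts with steeper slopes were set against the same earlier comparisons. Among the 891 transcripts that fell at least 4-fold along the line, 550 (61.7%, against 24.0% of all tested) were lower at the end of darkness than in control and 52 (5.84%, against 25.6%) higher. By 8 h of light 428 (48.0%, against 25.2%) were higher than before it and 40 (4.49%, against 26.3%) lower. Among the 756 that rose at least 4-fold, 104 (13.8%, against 25.6%) were higher and 174 (23.0%, against 24.0%) lower at the end of darkness than in control. By 8 h of light 52 of them (6.88%, against 25.2%) were higher and 185 (24.5%, against 26.3%) lower. For the rising ones both shares of lower calls lay near those of all tested transcripts, and both shares of higher calls lay below. The median differences of these 756 were -0.45 log2 units at the end of darkness and -0.39 at 8 h. Those of the 891 falling ones were -1.23 and 0.89, against 0.027 and -0.033 over all tested. Whether the share differs with the size of the slope was not tested.

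**Figure D4:**
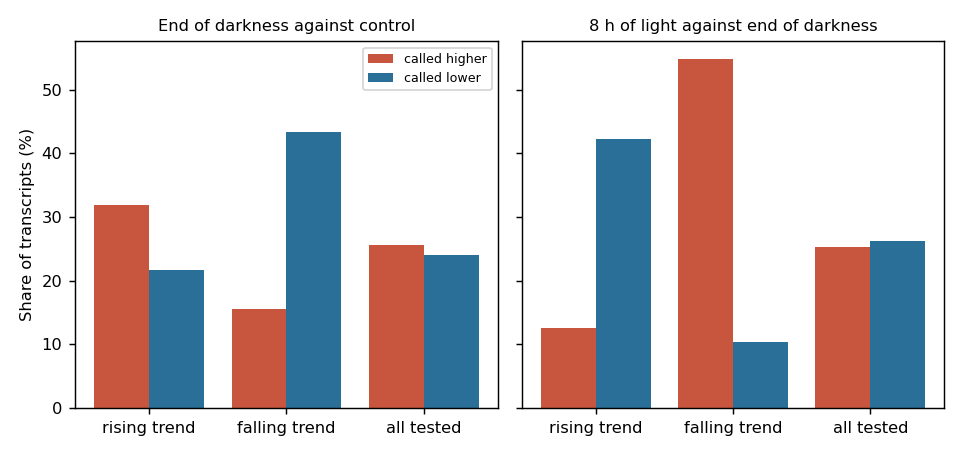
Share of transcripts (y axis, %) called higher or lower at the end of darkness against control and at 8 h of light against the end of darkness, for transcripts with a rising trend, those with a falling trend and all tested. Falling transcripts were lower in darkness in 43.4% and higher at 8 h in 54.9%, against 24.0% and 25.2% of all tested.

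Left-out libraries traced the full course against control. Falling transcripts, chosen in 2 replicate numbers (1453 to 3719 transcripts) and measured in the other, ended the darkness at -0.79 ± 0.22 log2 units relative to control (SD of 3 rotations). After 8 h of light they were at 0.26 ± 0.21, and over the harvests of 16, 40, 64 and 112 h at 0.18 ± 0.16, -0.17 ± 0.23, -0.89 ± 0.20 and -1.49 ± 0.69. Rising transcripts (1520 to 4008) ended the darkness at -0.037 ± 0.094 and were at -0.49 ± 0.28 after 8 h. Over the same 4 later harvests they were at -0.14 ± 0.06, 0.23 ± 0.11, 0.85 ± 0.24 and 1.32 ± 0.59. At 112 h the falling transcripts were at -2.11, -0.74 and -1.63 and the rising ones at 1.92, 0.73 and 1.32 in replicates 1, 2 and 3. Both groups were near control at 16 h, and by 112 h both lay farther from control than at the end of darkness. With library-size scaling the sign of the rising transcripts at the end of darkness turned, to 0.17 ± 0.18, and they stood at -0.018 ± 0.068 at 16 h. The other signs named here stayed.

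**Figure D5:**
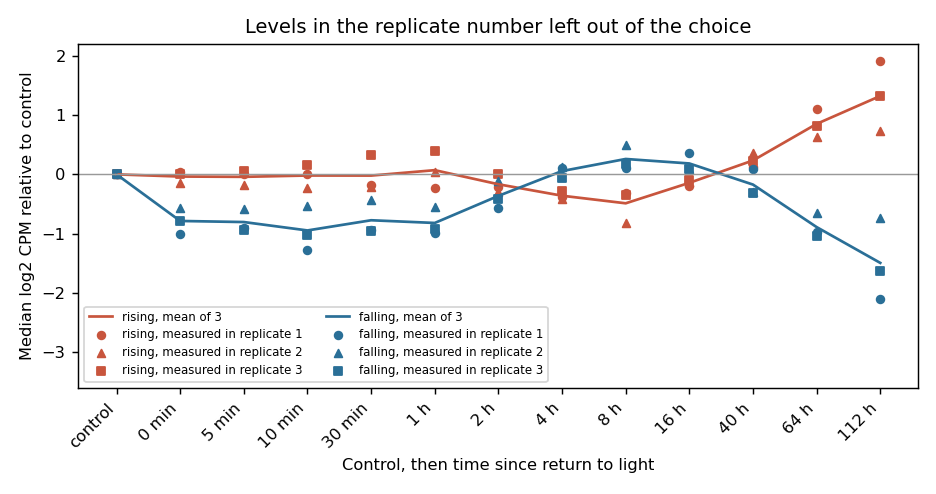
Median log2 CPM relative to control (y axis) at each harvest, in the replicate number left out of the choice, for transcripts chosen as rising (red) and falling (blue), with the points of the 3 replicate numbers and a line through their mean. The lines cross near control between 16 and 40 h and part to 1.32 and -1.49 at 112 h.

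The distance from control grew for most of these transcripts, as it did for most of all tested. It was larger at 112 h than at 16 h for 79.9% of rising and 88.1% of falling transcripts, against 69.4% of all tested. The median difference from control of the rising transcripts was 0.80 at 112 h and -0.074 at 16 h. That of the falling ones was -0.79 at 112 h and 0.057 at 16 h, and that of all tested 0.042 and 0.019. Of the rising transcripts, 3872 were above control at 112 h and below it at 16 h, 3253 were above it at both times and 407 below it at both. Of the falling transcripts, 3783 were below control at 112 h and above it at 16 h, 2909 were below it at both and 128 above it at both. Of all 42181 tested, 7626 crossed control upward and 7437 downward, 14618 were above it at both times and 12490 below it at both. Crossing was thus found for 51.4% of rising and 55.5% of falling transcripts, against 35.7% of all tested. The slope uses the same 16 and 112 h libraries, so the direction of crossing describes the choice. The shares with a larger distance at 112 h and the shares that crossed also follow in part from that choice. Since it is unknown at what clock time control leaves were taken, a difference from control can be one of clock time.

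Placed among all 13 groups, the last harvest was the extreme one for most transcripts with a slope. It had the highest mean of all groups for 4108 of the rising transcripts (54.5%, against 15.6% of all tested) and the lowest for 4061 of the falling ones (59.5%, against 15.5%). The 8 h harvest had the lowest mean for 1947 of the rising transcripts (25.8%, against 11.0%) and the highest for 2557 of the falling ones (37.5%, against 11.6%). A further 1171 falling transcripts (17.2%) had their highest mean at 16 h. The places of 112 h and of 8 h both follow in part from the slope that chose the transcripts. The 112 h mean was the lowest for 0 of the rising transcripts and the highest for 0 of the falling ones. More extremes are thereby left to other groups, 8 h among them, although the slope did not use the 8 h means.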

How the data were processed

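Each deposited table gives whole-number counts, not normalized, for every transcript of 1 library. The submitters' processing notes list FastQC 0.10.1, BWA 0.70 and SAMtools 1.0 with no role. No source names the reference sequences, the counter, the strand setting or how reads with several matches were treated. Per the labels' protocols, TruSeq polyA libraries were read as single-end 100 bp on a HiSeq2500. A second design in the extraction text of the labels was not used.

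Work was done in R 4.3.3 with edgeR 4.0.16. Its filterByExpr, with 10 as the minimum count and 15 as the minimum total, left 42181 transcripts and set aside 11544. Library sizes were scaled by TMM, whose factors averaged 1.00, 0.957, 0.915 and 0.915 at 16, 40, 64 and 112 h. All 39 libraries, as 13 group means, entered a quasi-likelihood fit (26 residual degrees of freedom). The slope was the least-squares contrast of the 4 time means on days, the departure an F test of the quadratic and cubic contrasts, and p-values were adjusted by Benjamini-Hochberg within a contrast over every tested transcript. The printed SE is the size of the log2 difference divided by the square root of F. The median biological coefficient of variation was 16.4%. CPM are TMM-scaled, with a prior count of 1 before logarithms. The test script was checked on simulated counts.

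The transcripts named are, in each direction, the steepest without a call of departure and the one with the smallest departure p, with 10 CPM or more on average in the highest group and no overlap between the 16 and 112 h libraries. At most 2 per direction are printed, since identifiers carry no names. Lists of marker genes were for that reason not tested. The comparisons and the rule were chosen with earlier results of these data known. Alternatives were other scalings and filters, a fit of the 12 libraries alone, a replicate block, other time scales, limma 3.58.1, DESeq2 1.42.0 and leaving out each library. Same-numbered libraries deviated together, with each of 3 correlations above 0.1, between 16 and 40 h (0.14 to 0.35) and between 40 and 64 h (0.10 to 0.28). The numbers were therefore taken to pair the libraries of these steps, on the data alone, and not those of 64 and 112 h. Replicates differed beyond counting noise (chi-square per degree of freedom 3.73 to 24.4), so none was a duplicate.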

Additional observations from a re-analysis of the deposited data

Results flagged for a closer look

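The daily rate of change differed between the last interval (64 to 112 h) and the first (16 to 40 h) for 3 transcripts, by the test of the difference itself (edgeR, adjusted p below 0.05). All 3 changed at a lower rate in the last interval. In 2 of them the highest time mean was 2.22 CPM or below, and in 698530803 it was 452.1 CPM. No cause was tested.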

How the results depend on the processing

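A slope was found for 13650 to 17772 transcripts in the other scalings, filters, time scales and tools and under a replicate block, against 14352. Over 16 to 64 h alone it was found for 5705, with fewer libraries, and without 1 library or 1 replicate number for 5239 to 15319 (5239 without number 1, 7669 without number 3, 9475 without 112 h replicate 1 and 14834 without 40 h replicate 2). In the 26 alternatives that kept all 4 times, no transcript with a slope in both had the opposite sign. They reuse all or most of the same libraries, so opposite calls were unlikely from the start. The slope over 16 to 64 h alone is not among them. The departure, with 1 call, had 3 on log2 hours, 5 with a replicate block, 0 with limma and 5 with DESeq2. It had 0 to 4 with a library or number left out. Any change, with 9668, had 1828 to 10558 so, with 3337 without number 3. The step from 16 to 40 h, with 11 calls, had 28 in the 12 libraries alone, 155 with a replicate block there, 34 with DESeq2 and 0 to 25 with a library or number left out. The step from 40 to 64 h, with 18, had 0 with library-size scaling, 341 in the 12 libraries, 971 and 873 with a replicate block on 39 and on 12 libraries, 255 with DESeq2 and 0 to 1330 with a library or number left out (1244 without number 2). The step from 64 to 112 h, with 288, had 155 with library-size scaling, 758 and 549 with the replicate block, 605 with DESeq2 and 0 to 1363 with a library or number left out (67 without number 3, 7 without 112 h replicate 1 and 958 without 112 h replicate 2). The difference between rates, with 3, had 1 with library-size scaling, 10 in the 12 libraries, 6 and 56 with the replicate block, 1 with limma, 9 with DESeq2 and 0 to 5 with a library or number left out. The cause of these changes was not tested.

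Replicate numbers did not pair all 4 times: deviations of same-numbered libraries correlated between -0.14 and 0.35, and 10 of 18 pairs were above 0.1, although 9 of 12 libraries correlated best with their own number. The fit without 40 h replicate 2, the distances from the midpoint and the library positions were chosen after seeing the data. At 3 libraries per time and without a replicate block, a step of the median size lies below its SE. Transcripts at a few reads per library, such as 698508153 at 16 h, carry no firm fold.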
